A study of Homo sapiens with 6 samples.

Results

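CPEB1, CPEB2, CPEB3, CPEB4, PUM2, MSI1 and MSI2 encode proteins that bind the 3' untranslated region (3' UTR) of messenger RNAs and set how strongly those messages are translated. These 7 genes, of 20532 in the count table, were taken by symbol. They were chosen by family, but also selected on this same comparison, in which CPEB4 and CPEB2 were known to be among the lowest genes, so their differences between groups are a description, and no p-value of theirs is given or used as support. The RNA came from MDA-MB-231 M3, a subline of the triple-negative human breast cancer line MDA-MB-231, with 3 control libraries and 3 libraries from cells in which PRMT1 was knocked down by a small interfering RNA (siPRMT1). PRMT1 is the main enzyme that places asymmetric dimethyl marks on arginines, many of them in RNA-binding proteins. The controls are described only as untreated or control cells, with any control siRNA not given in the sources used here. All 6 libraries come from this subline. The samples are labelled as biological replicates, but separate transfections are not mentioned, so the errors below measure only the spread between these libraries, which may be technical.

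Total counts ran from 16968563 to 20545995 per library. PRMT1 itself went from 146 ± 2.93 to 11.9 ± 0.0607 CPM (the depth-scaled count, with edgeR's TMM scaling; mean ± SD, n = 3 each). The line's markers VIM, CD44, FN1 and EGFR summed to at least 3302.96 CPM in every library, while ESR1 and PGR had at most 3 counts in any library. Within that sum mean VIM went from 1817 to 2368 CPM. The others went lower: CD44 from 1156 to 703, FN1 from 430 to 141 and EGFR from 237 to 112 CPM. ERBB2, at 61.3 ± 1.97 CPM in the controls, was not low. Among the neural markers, which matter because CPEB and Musashi genes are active in neural cells, RBFOX3 had at most 3 counts per library and the sum of all 5 went from between 112 and 118 CPM to between 169 and 176 CPM. TUBB3 made up most of that sum, and its part in the values below was not tested. NES and GFAP also had higher means after knockdown. SOX2, with at most 21 counts per library, went lower, from 0.756 ± 0.176 to 0.186 ± 0.0770 CPM. In bulk RNA, fewer cells with a transcript and less of it per cell cannot be told apart.

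CPEB proteins recognise the cytoplasmic polyadenylation element, a short U-rich sequence near the end of a message. Depending on their phosphorylation and partners they shorten the poly(A) tail and silence the message, or lengthen it and switch translation on, as in oocyte maturation and at synapses. CPEB2, CPEB3 and CPEB4 form a closely related subgroup, with CPEB1 more distant. Pumilio proteins such as PUM2 bind the Pumilio element and recruit the CCR4-NOT deadenylase, which leads to repression and decay. Musashi proteins bind short UAG-containing sites, repress messages such as NUMB, and are known from neural and other stem cells.

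The transcripts of these regulators carry such elements themselves. The sites below are shown because they are the letters that Pumilio and CPEB proteins read, found in the members' own 3' UTRs. They are from GENCODE release 44 canonical transcripts on hg38, transcript strand, with the element in capitals and 8 bases on either side. Pumilio elements (TGTANATA) nearest the stop codon lie at chr2:20251145-20251168 in PUM2 (minus strand), chr10:92049461-92049484 in CPEB3 (minus strand) and chr17:57679734-57679757 in MSI2 (plus strand).
PUM2 Pumilio element: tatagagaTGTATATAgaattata
CPEB3 Pumilio element: ttttgtttTGTAAATAaatgtgcc
MSI2 Pumilio element: tttaaatgTGTATATAacccatga
Cytoplasmic polyadenylation elements (TTTTAT or TTTTAAT) nearest the 3' end of the transcript lie at chr5:173961560-173961581 in CPEB4 (plus strand), chr4:15069985-15070006 in CPEB2 (plus strand), chr10:92046891-92046912 in CPEB3 (minus strand) and chr2:20249606-20249627 in PUM2 (minus strand).
CPEB4 polyadenylation element: ctttttatTTTTATcttttgtt
CPEB2 polyadenylation element: ttagtttaTTTTATtgttatct
CPEB3 polyadenylation element: attgtatcTTTTATtacctgtt
PUM2 polyadenylation element: tctaaaggTTTTATcacttagt
The polyadenylation elements shown lie 407 bases from the transcript end in CPEB4, 153 in CPEB2, 207 in CPEB3 and 877 in PUM2. A match is only a match of letters, and no binding was measured.

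CPEB4 (ENSG00000113742; chromosome 5, 173888349 to 173961980, plus strand) is the member with the lowest ratio between groups. It had 900, 788 and 811 counts in the controls and 36, 39 and 32 in the siPRMT1 libraries. Every siPRMT1 library lay far below every control library, and the libraries within a group were close to each other. Its level went from 39.5 ± 1.47 to 2.15 ± 0.0710 CPM (n = 3 each). This is 18.3-fold lower, and the log2 fold change (siPRMT1 minus control, from edgeR) was -4.20 with a standard error (SE) of 0.0907. The share of all tested genes whose groups do not overlap was not counted, here or for the members below. In edgeR 89.3% of all tested genes passed an adjusted p of 0.05 in either direction.

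For CPEB2 (ENSG00000137449; chromosome 4, 15002481 to 15070153, plus strand) the controls held 1417, 1317 and 1310 counts and the siPRMT1 libraries 81, 102 and 80, without overlap. It was the most abundant CPEB transcript in both groups. Its level went from 64.0 ± 2.16 to 5.28 ± 0.262 CPM, 12.1-fold lower (log2 fold change -3.60, SE 0.0657). CPEB3 (ENSG00000107864; chromosome 10, 92046692 to 92291078, minus strand) was scarce, with 46, 41 and 43 counts in the controls and 8, 6 and 11 after knockdown. The groups did not overlap, but the siPRMT1 values rest on few reads. Its level went from 2.06 ± 0.0388 to 0.515 ± 0.199 CPM, 4.05-fold lower (log2 fold change -2.02, SE 0.275).

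CPEB1 (ENSG00000214575; chromosome 15, 82543201 to 82648861, minus strand), the founding member known from oocytes, was not detected above the floor of 3 counts per library. It had 3 counts in control replicate 3, 1 in siPRMT1 replicate 1 and none in the other libraries, so no fold is given. That floor corresponds to between 0.137 and 0.197 CPM. Its low count is uncertain, since how reads matching several genes were counted is not known here.

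PUM2 (ENSG00000055917; chromosome 2, 20248691 to 20352234, minus strand) was the most abundant member. It had 2337, 2039 and 2231 counts in the controls and 588, 613 and 503 in the siPRMT1 libraries, without overlap. Its level went from 105 ± 2.42 to 34.3 ± 1.90 CPM, 3.05-fold lower (log2 fold change -1.61, SE 0.0379).

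Of the Musashi genes only MSI2 was detected, and it differed from the other detected members. MSI1 (ENSG00000135097; chromosome 12, 120341330 to 120369164, minus strand) had 1 count in siPRMT1 replicate 1 and none elsewhere, and was not detected at this depth. MSI2 (ENSG00000153944; chromosome 17, 57255851 to 57684689, plus strand), the broadly expressed Musashi gene, had 7.81, 6.90 and 8.33 CPM in the controls and 7.13, 6.47 and 6.90 CPM in the siPRMT1 libraries. The groups overlapped. The means were 7.68 ± 0.725 and 6.83 ± 0.336 CPM, and the log2 fold change of -0.17 (SE 0.102) was less than 2 times its error.

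**Figure D1:**
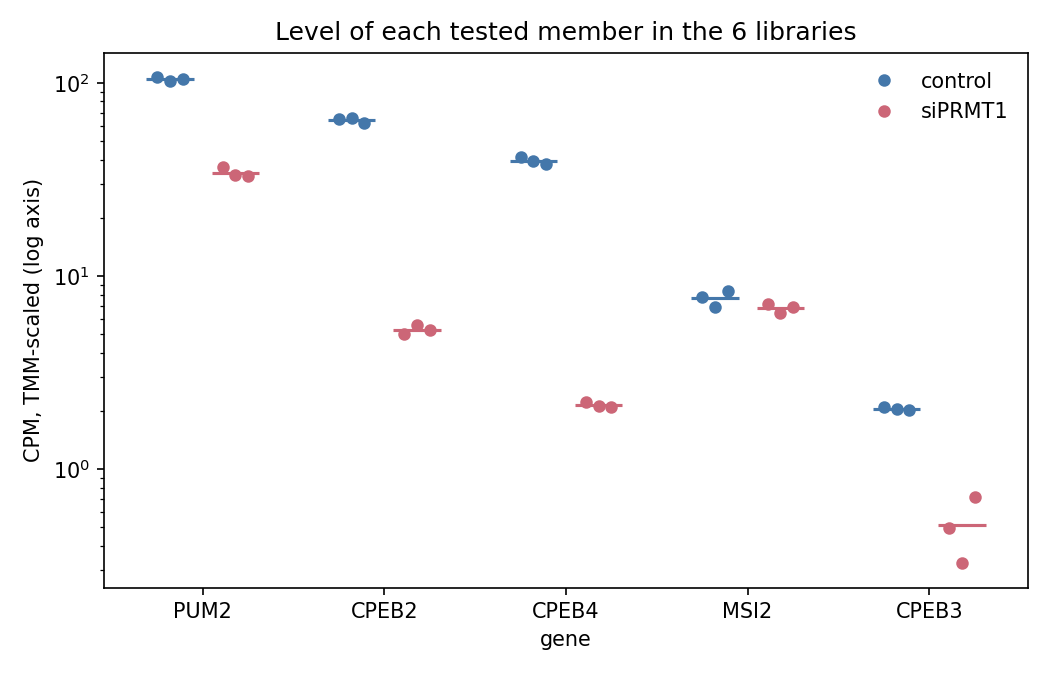
Levels of the 5 detected members in each of the 6 libraries, in CPM on a log axis, with a bar at each group's mean. The groups are apart for PUM2, CPEB2, CPEB4 and CPEB3 and overlap for MSI2. How many of all tested genes have groups apart was not counted, and 89.3% of them were called in either direction.

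Of the 7 members 5 had enough reads to enter the fit of 13710 genes. In that fit 89.3% of genes passed an adjusted p of 0.05 (edgeR, Benjamini-Hochberg adjustment over all of them), 45.0% as lower and 21.0% as at least 2-fold lower. CPEB2, CPEB3, CPEB4 and PUM2 were among the genes called lower and at least 2-fold lower, and MSI2 was not among those called. Since the members were chosen with this contrast in view, those calls are no test of them and nothing is read from their number. Counted from the lowest log2 fold change, CPEB4 ranked 13 and CPEB2 ranked 33 of all tested genes, CPEB3 ranked 684, PUM2 ranked 1312 and MSI2 ranked 6124. With the offsets for GC content and length described below the ranks were 69 for CPEB4, 81 for CPEB2, 1348 for CPEB3, 2752 for PUM2 and 12554 for MSI2, which moved from the middle towards the highest genes.

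Divided by the length of the canonical transcript, so that genes can be compared with each other, the order of levels differed between the groups. In control cells PUM2 stood at 16.6 ± 0.384 CPM per kilobase, followed by CPEB2 at 9.06 ± 0.305, CPEB4 at 4.20 ± 0.156, MSI2 at 1.20 ± 0.114 and CPEB3 at 0.264 ± 0.00499. After knockdown PUM2 was again first at 5.43 ± 0.302 CPM per kilobase, but MSI2 came next at 1.07 ± 0.0527. CPEB2 at 0.746 ± 0.0370, CPEB4 at 0.229 ± 0.00754 and CPEB3 at 0.0662 ± 0.0256 followed. No neighbours in either order had overlapping libraries. The place of MSI2 depends on the length used: over the 22248 bases of merged exons in the deposited table its siPRMT1 level was 0.307 CPM per kilobase, below CPEB2 at 0.716.

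The 4 CPEB genes together went from 13.5 ± 0.402 to 1.05 ± 0.0155 CPM per kilobase. CPEB2 made up 66.9% ± 0.676 of that sum in the controls and 71.3% ± 2.94 in the siPRMT1 libraries. The share of CPEB4 was 31.0% ± 0.626 and then 21.8% ± 1.05, and that of CPEB3 1.95% ± 0.0376 and then 6.32% ± 2.39. The CPEB pool was mostly CPEB2 in both groups, and the shares of CPEB2, CPEB3 and CPEB4 each differed between the groups without overlap. The siPRMT1 share of CPEB3 rests on at most 11 reads per library.

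Across the transcriptome the fold change followed the length and base composition of transcripts, and the 5 detected members are long. What lies behind this trend was not tested. CPEB4, with a canonical transcript of 9418 bases and 38.4% GC, is longer than 95.0% of tested genes. CPEB2 (7069 bases, 44.9% GC), CPEB3 (7781 bases, 42.1% GC), PUM2 (6309 bases, 40.7% GC) and MSI2 (6379 bases, 41.6% GC) are longer than at least 84.1%. The undetected CPEB1 (3482 bases) and MSI1 (2959 bases) are longer than 53.9% and 44.9%. The median log2 fold change was -0.80 for the 1293 genes with transcripts of 6000 to 8000 bases and -1.08 for the 1151 genes with longer ones, against -0.0082 over all tested genes. Within the class of 6000 to 8000 bases the members ran from -3.60 for CPEB2 to -0.17 for MSI2.

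**Figure D2:**
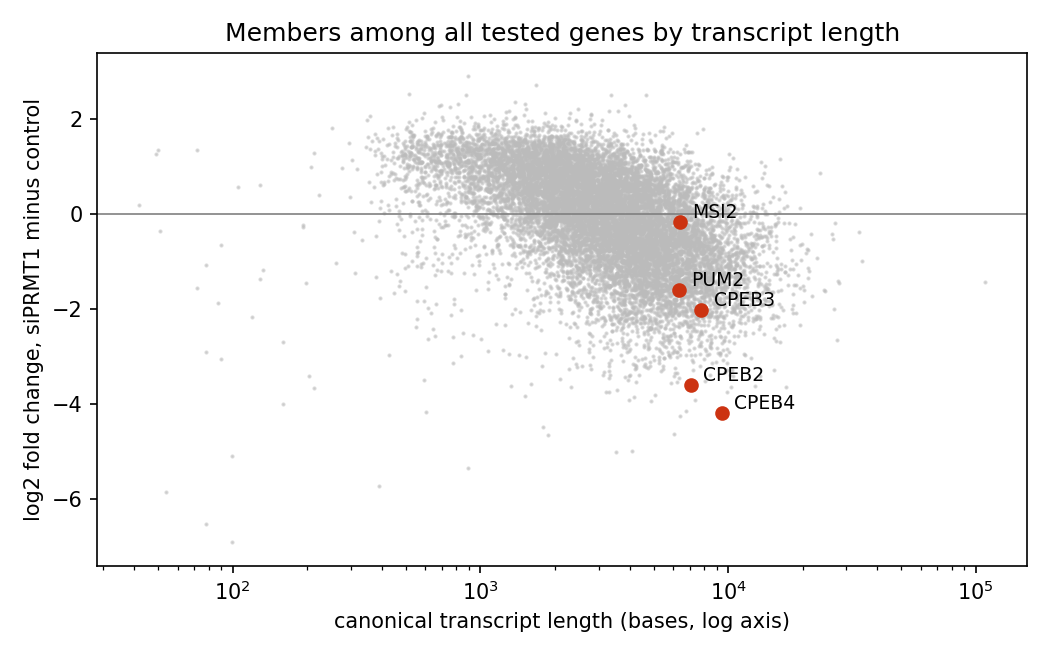
Log2 fold change of each tested gene (grey points) against the length of its canonical transcript in bases on a log axis, with the 5 tested members in red. CPEB4 and CPEB2 lie below nearly all genes of similar length, and MSI2 lies above most of them.

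With offsets for GC content and length in the fit, the members kept different parts of their difference. CPEB4 stood at -2.89 (SE 0.0974) and CPEB2 at -2.80 (SE 0.0658) on the log2 scale, so the gap between these paralogs nearly closed. CPEB3 stood at -1.02 (SE 0.286) and PUM2 at -0.62 (SE 0.0381). MSI2 changed sign and was higher after knockdown, at 0.77 (SE 0.105). With the offsets 42.6% of all genes passed as lower. Scaling matters as well: by library size alone the median of all genes moved by -0.317, which put CPEB4 at -4.51, CPEB2 at -3.91, CPEB3 at -2.33, PUM2 at -1.93 and MSI2 at -0.49.

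**Figure D3:**
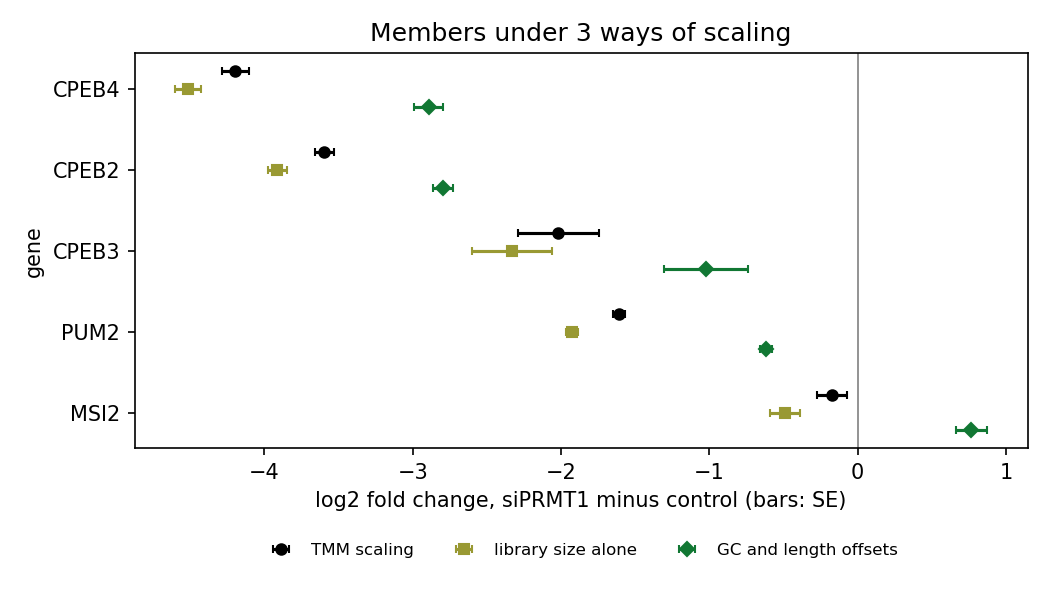
Log2 fold changes (siPRMT1 minus control) of the 5 tested members with TMM scaling (circles), library size alone (squares) and GC and length offsets (diamonds); bars are standard errors. CPEB4, CPEB2, CPEB3 and PUM2 lie below 0 in all of them, and MSI2 crosses 0 with the offsets, at 0.77.

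The members' own 3' UTRs, which the choice of members did not use, differ in their elements. CPEB2 has 25 polyadenylation elements in 3771 bases, or 6.63 per kilobase. Of the 1516 tested genes with a 3' UTR within 20% of that length, itself included, 94.5% hold at least 1, the median is 5, and 2 hold as many or more. CPEB4 has 25 in 5843 bases, against a median of 9 among 809 genes of similar 3' UTR length, of which 3 hold as many or more. These are also AU-rich sequences, at 30.7% GC in CPEB2 and 32.5% in CPEB4. MSI2 has 17 polyadenylation elements, CPEB3 has 15 and PUM2 has 9, and the share of genes of similar 3' UTR length with at least as many is 7.21%, 14.8% and 13.4%.

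Neither CPEB2 nor CPEB4 has a Pumilio element in this 3' UTR, while 50.1% and 60.9% of genes with 3' UTRs of similar length hold at least 1. MSI2 has 3 Pumilio elements, and PUM2 and CPEB3 have 2 each. The share of genes of similar 3' UTR length with a Pumilio element is 59.4% for MSI2, 43.7% for PUM2 and 60.7% for CPEB3. At least as many as the member are held by 11.7%, 15.8% and 31.4% of those genes, in the same order. Musashi elements (a G or an A, then 1 to 3 Ts, then AGT) number 25 in CPEB4, 17 in CPEB2, 15 in CPEB3, 10 in MSI2 and 8 in PUM2. At least 96.1% of genes with 3' UTRs as long as any of these hold a Musashi element. Of genes of similar 3' UTR length, 2.6% have at least as many as CPEB4 and 4.82% at least as many as CPEB2. For CPEB3, PUM2 and MSI2 that share is 31.6%, 32.7% and 59.1%. Among these 5 genes the 3 kinds of element shared no bases, except for 1 polyadenylation element of CPEB2 that overlaps a Musashi element.

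**Figure D4:**
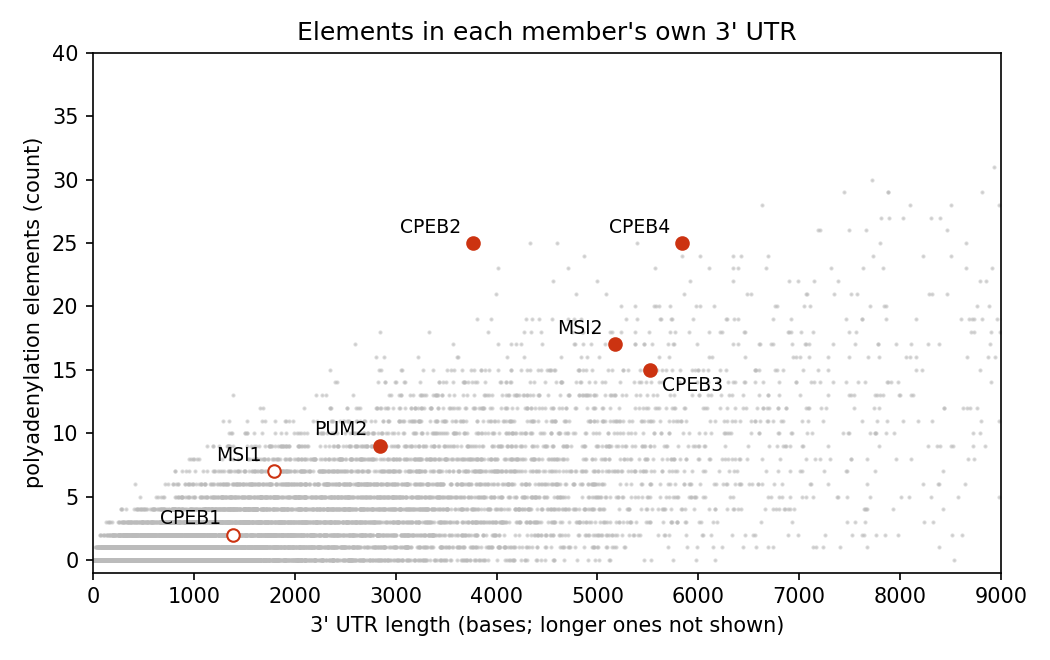
Number of cytoplasmic polyadenylation elements (TTTTAT or TTTTAAT) against 3' UTR length in bases for tested genes (grey) and the members (red; CPEB1 and MSI1, open circles, were not detected). CPEB2 and CPEB4, each with 25, lie above nearly all genes of similar 3' UTR length.

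Genes that hold such elements, and so could be bound by these proteins, were set side by side with the rest as a description. Of 13551 tested genes with an annotated 3' UTR 28.7% hold a Pumilio element, 65.4% a polyadenylation element and 68.7% a Musashi element. The median log2 fold change was 0.26 for the 9662 genes with no Pumilio element, -0.53 with 1, -0.96 with 2 and -1.17 for the 480 genes with 3 or more. With the GC and length offsets these medians were -0.0089, -0.11, -0.22 and -0.23. For polyadenylation elements the medians ran from 0.74 with none to -1.24 with over 10. With the offsets they were 0.046 with none, -0.059 with 1 to 2, -0.12 with 3 to 5, -0.21 with 6 to 10 and -0.11 with over 10, so the lowest was not the last. For Musashi elements they ran from 0.74 with none to -1.06 with over 10. With the offsets they were 0.016, -0.060, -0.11, -0.13 and -0.00082 for the same classes of number. Length and GC content moved with the number of elements: genes with 3 or more Pumilio elements have a median 3' UTR of 4701.5 bases and a median transcript GC of 40.1%, and those with none 884 bases and 51.6%.

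**Figure D5:**
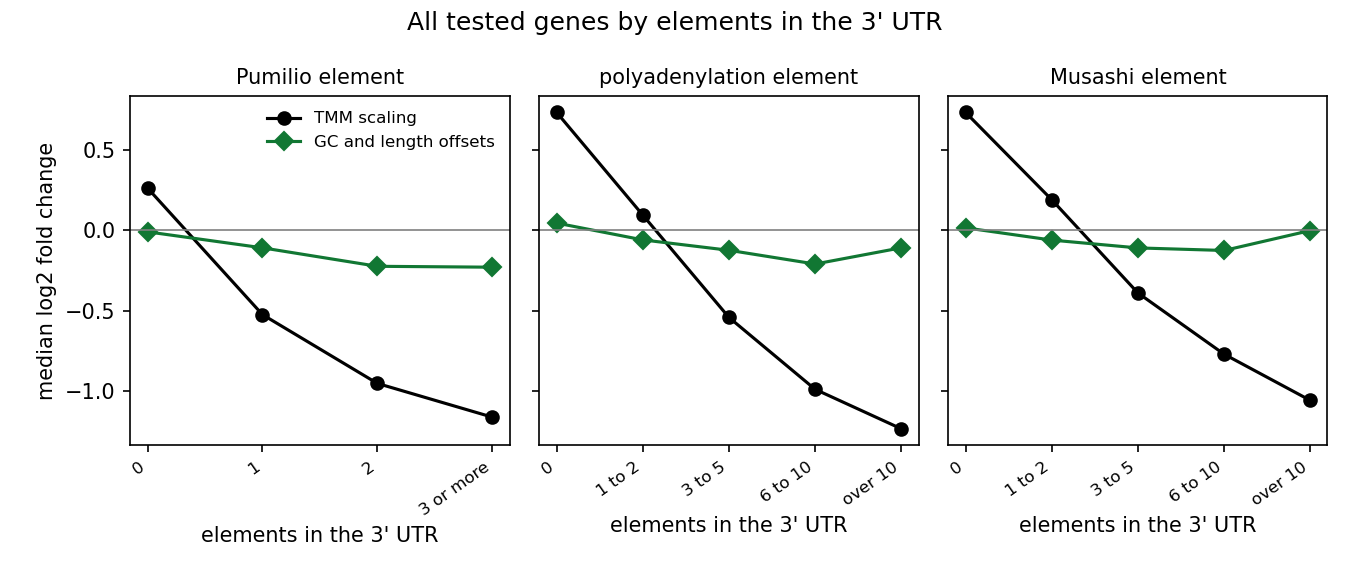
Median log2 fold change of tested genes grouped by the number of Pumilio, polyadenylation or Musashi elements in the 3' UTR, with TMM scaling (black circles) and with GC and length offsets (green diamonds). The black medians fall from group to group, and the green ones all lie between -0.23 and 0.046.

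Partners of the members moved in both directions, in a comparison where 45.0% of all tested genes were called lower and 89.3% called in either direction. Of 17 genes of the CPEB complexes 9 fell and 7 rose, and NEURL1 did not pass, with a median log2 fold change of -0.28. DDX6, an RNA helicase of repressed messages, fell from 244 ± 7.34 to 90.7 ± 1.23 CPM (log2 fold change -1.43). It stood at -0.41 with the GC and length offsets, called corrected from here on. The lists were chosen with earlier results of these data known, so no p-value of their genes is used as support. EIF4E, the cap-binding protein that CPEB complexes restrain, fell by 1.49 on the log2 scale (-0.73 with the offsets). TACC3, the human relative of the frog CPEB partner maskin, rose from 83.2 ± 1.46 to 159 ± 2.71 CPM (0.94, corrected 0.31). Of 12 tested Pumilio partners and relatives 6 fell and 6 rose, with a median of -0.10. CNOT6, a deadenylase of the CCR4-NOT complex, fell from 69.5 ± 1.27 to 8.63 ± 0.739 CPM (-3.02, corrected -1.97), and the scaffold gene CNOT1 fell by 1.11 (corrected -0.25). With library size alone 12 of the CPEB partners fell and 4 rose, and 7 of the Pumilio list fell and 2 rose. In that setting 7593 of all 13710 tested genes were called lower and 4588 higher. With the offsets 8 of the CPEB partners fell and 8 rose (median -0.18), and 5 of the Pumilio list fell and 6 rose (median 0.034). Of all tested genes 42.6% were called lower with the offsets.

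Other regulators that bind 3' UTRs were mostly lower. There were 22 tested, of which 18 fell and 4 rose (median -0.79, or -0.34 with the offsets, where 16 fell and 5 rose). The median over all tested genes was -0.0082, or -0.045 with the offsets. Of all tested genes 45.0% were called lower, or 42.6% with the offsets. QKI, a STAR-family regulator of splicing and mRNA stability, fell from 98.6 ± 1.71 to 18.5 ± 0.802 CPM (-2.41, corrected -1.12). RC3H2, which encodes a roquin that marks messages for decay, fell by 2.36 (corrected -1.12) and CELF1, which binds GU-rich elements, by 1.66 (corrected -0.95). DAZL, LIN28B and ELAVL2 had no counts in any library.

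Messages known as targets of these families were also measured, again beside 45.0% of all tested genes called lower. Only RNA levels were counted, while translation and poly(A) tail length were not measured. Of 9 tested CPEB targets 7 fell and 2 rose (median -0.52), of 10 Pumilio targets 8 fell and 2 rose (median -0.59), and of 7 Musashi targets 6 fell and 1 rose (median -0.54). With the offsets 6 CPEB targets fell and 2 rose (median -0.47), 6 Pumilio targets fell and 2 rose (median -0.26), and 6 Musashi targets fell and 1 rose (median -0.17). In that fit 42.6% of all tested genes were called lower. HIF1A, the hypoxia transcription factor and a known CPEB2 target, fell from 492 ± 5.98 to 43.2 ± 2.92 CPM (-3.50, corrected -2.74). CCNB1, the mitotic cyclin and classic CPEB1 target, also on the Pumilio list, rose from 207 ± 3.97 to 390 ± 2.49 CPM (0.91, corrected 1.04). EGFR fell by 1.08 (corrected -0.32). Among Pumilio targets, the cohesin gene SMC1A fell by 1.51 (corrected -0.72) and the cell cycle factor gene E2F3 by 2.49 (corrected -1.97). Among Musashi targets, the receptor gene TGFBR1 fell by 1.42 (corrected -0.30) and the Notch ligand gene JAG1 by 1.36 (corrected -0.93). CDKN1A, the cell cycle inhibitor on both the Pumilio and the Musashi list, rose by 0.70 but was lower with the offsets (-0.12).

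The genes with the profile most like each member were found by the distance between log2 CPM profiles, each centred on its mean over the 6 libraries, among 11322 genes of at least 5 CPM. With only 2 groups, this mostly reflects a like ratio between them. Nearest to CPEB4 were SEMA3C, a secreted semaphorin (distance 0.299), the DNA ligase gene LIG4 (0.452) and ENSG00000273217 (0.478), with log2 fold changes of -3.93, -3.92 and -4.26. Nearest to CPEB2 were HIF1A (0.117), the knocked-down PRMT1 itself (0.126) and the nuclear pore gene NUP58 (0.138). PUM2 was closest to the amino acid transporter gene SLC7A1 (0.0503), MAP3K20 (0.0565) and STAM2 (0.0648). MSI2 was closest to MAP3K13 (0.0711), SNRNP27 (0.0930) and ADPRHL1 (0.107).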

How the data were processed

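The values are raw counts in a single table that the authors deposited, with gene identifiers, symbols, coordinates and lengths. Build hg38 and the tools STAR 2.7.6a, fastp 0.23.2, Subread 1.5.1, edgeR 3.40.2 and featureCounts appear in the submitters' processing notes. Annotation release, strand setting, duplicate handling: not given in the sources used here. Deposited gene lengths equal the merged exons of GENCODE release 44 for 96.3% of 20472 genes, all members included, and gene coordinates here are from that release.

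Members and lists were chosen with earlier results of these data known. Counts were filtered (filterByExpr), TMM-scaled and tested with edgeR 4.0.16 (glmQLFit, glmQLFTest) in R 4.3.3, checked on simulated counts. The simulated counts had far fewer changed genes than these data and no length or GC trend. They therefore do not check the scaling where most genes move. Each SE is the size of the log2 fold change over the square root of F. GC and length offsets used splines with 5 degrees of freedom per library on canonical transcripts. Named were all members, PRMT1, the 3 nearest profiles per member, and from each list the 3 genes with the smallest adjusted p at 1 CPM or more. Not every gene so named is reported here. Replicate pairs differed slightly more than sampling noise (chi-square over degrees of freedom 1.05 to 1.38, where noise alone gives 1). Alternatives were other scalings, DESeq2 1.42.0, limma-voom (limma 3.58.1), other filters, a replicate block, the offsets and leaving out each library.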

Additional observations from a re-analysis of the deposited data

How the results depend on the processing

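The counts of genes past the threshold stayed within 1.5 times of 12243 for all genes, 4 for the members and 74 for the partner and target lists, under every alternative run: 10991 to 12532, 4 to 5 and 69 to 74. Scaling moved the split of calls, from 6078 higher and 6165 lower to 4588 higher and 7593 lower with library size alone. CPEB2, CPEB3, CPEB4 and PUM2 kept their direction and were called lower in all 15 alternatives, which, as they were chosen on this contrast, is a description and no test of them. MSI2 did not: it was higher with the GC and length offsets (0.77) and with the offsets and the replicate block together (0.78), and was called lower with library size alone (-0.49) and without control replicate 2 (-0.24). Same-numbered control and siPRMT1 libraries did not deviate together (correlations of deviations from -0.022 to -0.0057 over 11323 genes), so the numbers are taken only as names. The fit with the replicate block called 12219 genes. CPEB3 rests on at most 11 reads per siPRMT1 library, and its log2 fold change ran from -2.32 without siPRMT1 replicate 3 to -1.75 without siPRMT1 replicate 2.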

Other observations

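The coordinates in the deposited table do not span some members. For CPEB4 the listed end lies 5523 bases before the GENCODE 44 end and for CPEB2 3527 bases before it, a stretch that holds most of both 3' UTRs. The listed lengths, 10444 and 7370 bases, equal the merged exons with those 3' UTRs, whereas without the exons that end past the listed coordinate they would be 4921 and 3843 bases. The counted gene model thus includes these 3' UTRs.

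The CCR4-NOT deadenylase, which Pumilio proteins recruit, was uneven among its subunits, which were picked here after their values were seen. All 4 catalytic subunits were lower after knockdown, CNOT6 (-3.02) far more than CNOT8 (-1.32), CNOT6L (-0.84) and CNOT7 (-0.31). Of all tested genes 45.0% were called lower, or 42.6% with the offsets. CNOT1 (-1.11), CNOT4 (-0.58) and CNOT2 (-0.32) were lower too, while CNOT3 (0.57), CNOT10 (0.42), CNOT9 (0.35) and CNOT11 (0.11) were higher. With the GC and length offsets CNOT7 (1.06), CNOT6L (0.61) and CNOT2 (0.088) were higher and CNOT3 (-0.23) lower, CNOT11 stood at -0.020 and did not pass, and the other subunits named kept their direction. With library size alone CNOT11 stood at -0.21, CNOT9 at 0.035, CNOT10 at 0.10 and CNOT3 at 0.26.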
